A study of Mus musculus with 15 samples.

Results

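The genes described here encode the proteins of the mitochondrial ribosome and of the machinery that imports proteins into mitochondria. They were taken as every gene whose symbol begins with Mrpl or Mrps followed by a number, or with Tomm or Timm. Of 14615 gene symbols left once transcripts assembled opposite to a reference exon were removed, 102 met this rule. They comprised 48 genes taken as the large and 28 taken as the small subunit of the mitochondrial ribosome. This split follows the symbol (Mrpl or Mrps) alone, so a protein may sit in the other subunit. Another 8 were of the translocase of the outer membrane (TOM) and 13 of the translocases of the inner membrane (TIM). A further 3 (Mrps36, Timmdc1 and Tomm34) carry such a symbol but have another function, and 2 (Mrpl23-ps1 and Mrpl48-ps) are pseudogenes. All 102 had at least 1 FPKM in at least 3 libraries and all 102 were tested. FPKM stands for fragments per kilobase of transcript and per unit of sequenced fragments.

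Each group held 3 RNA-seq libraries, 15 in all. The lens groups came from microdissected lenses of wild-type C57BL/6NTac mouse embryos at 4 stages named by embryonic day (E). Each library pooled 50 lenses at E10.5, 29 at E12.5, 18 on E14.5 or 17 on E16.5. The reference group, called whole body, came from whole embryos of the same strain and genotype, labelled E10.5 to 12.5. Embryos of 3 ages in this span were dissected, and how the ages enter the 3 libraries is not stated, so age may also differ in the comparisons with E10.5 and E12.5 lens. It served in the study to find genes enriched in the lens. No whole-body library matched E14.5 or E16.5, so at these stages tissue and age cannot be told apart.

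Mitochondria make only a few of their proteins themselves. These are translated from mitochondrial DNA by the mitochondrial ribosome, whose own proteins are encoded in the nucleus and imported. Imported proteins enter through TOM, after which the TIM23 complex carries presequence proteins to the matrix or inner membrane and the TIM22 complex inserts carrier proteins into the inner membrane. Small TIM chaperones escort hydrophobic proteins across the space between the membranes. In the lens, epithelial cells contain mitochondria, while maturing fibre cells fill with crystallins and later degrade their organelles.

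Lens fibre markers set the lens libraries apart from whole body. They summed to 203 to 268 FPKM at E10.5 and at least 46508 FPKM from E12.5 on, against 8.5 to 9.4 FPKM in whole body. Transcripts of other tissues were also present and differed between groups. Erythroid markers summed to 2217 to 7724 FPKM at E10.5 and E12.5, 109 to 439 FPKM later and 7476 to 9556 FPKM in whole body. Mesenchymal markers summed to 293, 292 and 2755 FPKM in E10.5 replicates 1, 2 and 3. They summed to 339 to 1187 FPKM at E12.5, 17.8 to 40.6 FPKM later and 1517 to 1679 FPKM in whole body. Neural retina markers summed to 1214 to 1432 FPKM at E10.5 and 153 to 163 FPKM at E16.5. Macrophage markers summed to 134 to 161 FPKM at E10.5, 6.3 to 17.3 FPKM from E14.5 on and 39.4 to 44.0 FPKM in whole body, and endothelial markers to 569 to 638, 88.8 to 166 and 312 to 318 FPKM. Muscle and neuron markers were at most 28.0 and 49.2 FPKM in the lens, against at least 625 and 968 FPKM in whole body. Liver markers reached 485 and 878 FPKM in E10.5 replicates 1 and 3, above the 240 to 276 FPKM of whole body. They summed to 12.9 FPKM in E10.5 replicate 2 and at most 2.3 FPKM in any later lens library. The part of these transcripts in the results below was not tested. In such bulk samples, fewer cells of a type and less RNA per cell cannot be told apart.

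More genes of the mitochondrial ribosome and import machinery were higher in the lens than lower, relative to whole body, at each of the 4 stages on the deposited scale. At E10.5, 49 of the 102 genes were higher than in whole body and 5 lower, against 24.6% and 31.2% of all 14532 genes tested. At E12.5, 64 were higher and 6 lower, against 32.3% and 37.1% of all genes. At E14.5, 77 were higher and 6 lower, against 35.7% and 42.6%. At E16.5, 70 were higher and 10 lower, against 36.8% and 43.4%. Calls were made with limma on log2(FPKM + 1) where the p adjusted by Benjamini-Hochberg was under 0.05, and fold changes are on that scale. Each lens stage was compared with the same 3 whole-body libraries, so these 4 counts are not independent. Both pseudogenes are among the lower calls at every stage. Without them, 3 genes were lower at E10.5, 8 at E16.5 and 4 at each stage between.

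The differences were small for most genes. The median log2 difference of the 102 genes from whole body was 0.21 at E10.5, then 0.34 at E12.5, 0.57 on E14.5 and 0.50 on E16.5, beside medians of -0.035, -0.04, -0.099 and -0.105 for all genes tested. At E16.5, 23 of the 102 genes were called with at least a 2-fold rise and 1 with a 2-fold fall, against 18.5% and 26.2% of all genes. That fall was of the pseudogene Mrpl48-ps. It reached the filter of 1 FPKM only in whole body, so it could not have been called higher in the lens. In each of the 4 main sets more genes were higher than lower at E16.5. There, 37 of 48 large-subunit genes, 16 of 28 small-subunit genes, 5 of 8 TOM genes and 9 of 13 TIM genes were higher. Lower calls at E16.5 numbered 4, 1, 2 and 1 in these sets.

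**Figure D1:**
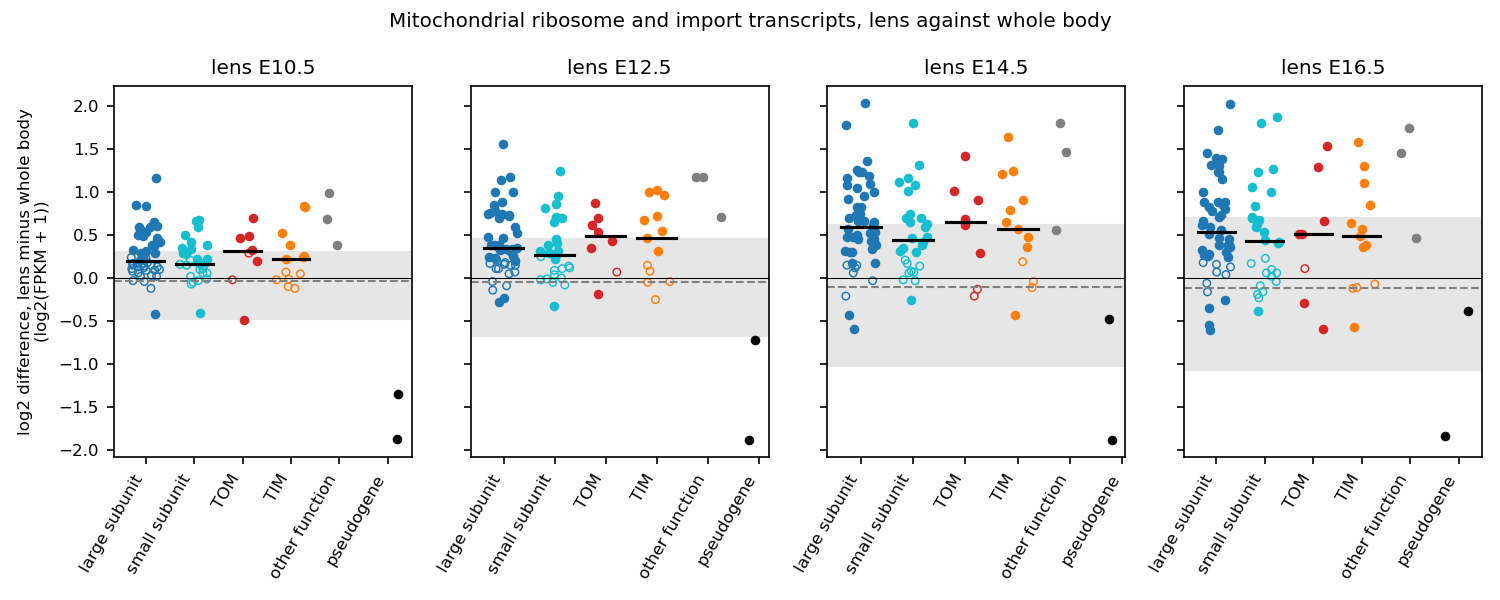
Log2 difference of each of the 102 genes between the lens at 4 stages and whole body, on the log2(FPKM + 1) scale (y axis), by set (x axis). Filled points were called at an adjusted p under 0.05 and open points were not; black bars are medians of sets over 3 genes, the dashed line is the median of all genes tested and the grey band the range between their quartiles. The medians of the ribosomal, TOM and TIM sets lie above the dashed line at each stage.

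The direction of these counts depended on how the libraries were scaled. Crystallins, the main proteins of the lens, took 0.0463% to 0.067% of FPKM at E10.5, then 7.27% to 12.9% at E12.5, 25.2% to 30.1% on E14.5 and 28.2% to 37.3% on E16.5, and the deposited FPKM summed to between 706887 and 1626262 per library. With crystallins left out and the remaining totals made equal, the median of all genes moved by -0.48 in E16.5 against whole body, and 35 of the 102 genes were higher and 36 lower, against 23.4% and 60.1% of all genes. In E14.5 against whole body the split became 47 higher and 26 lower, against 23.5% and 58.0%. In E12.5 against whole body it became 45 higher and 13 lower, against 24.9% and 45.9%. Relative to the median of all genes, the 102 genes moved little. Their median lay 0.61 above that of all genes at E16.5 on the deposited scale and 0.57 above it with crystallins left out. The corresponding values at E14.5 were 0.66 and 0.64.

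**Figure D2:**
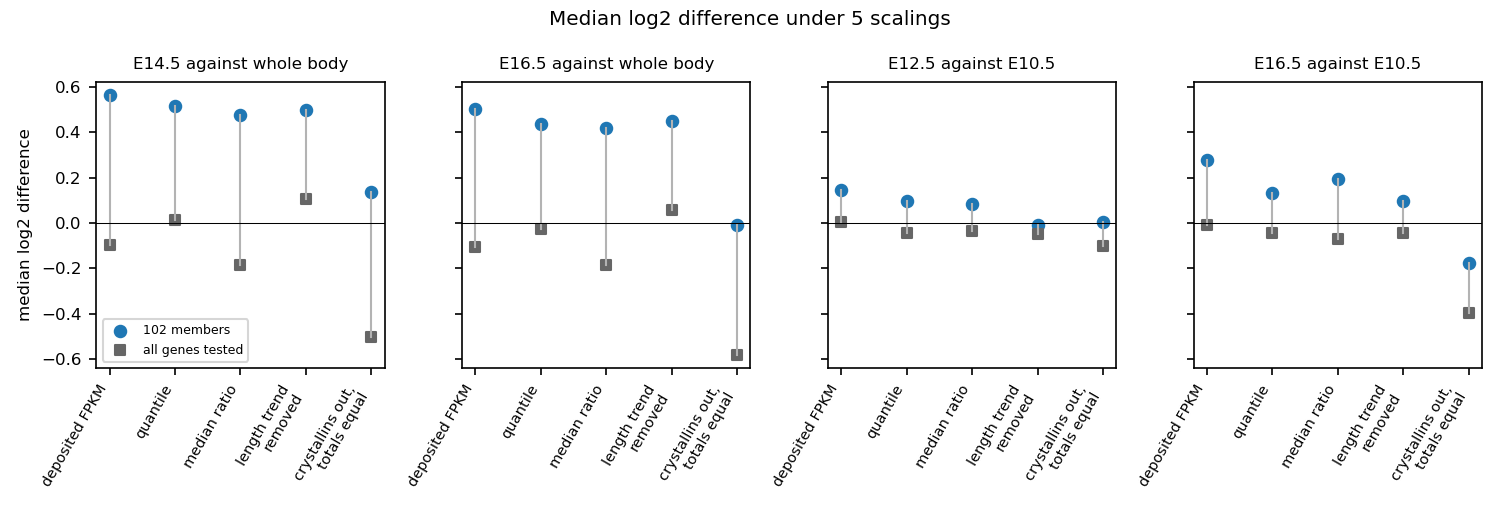
Median log2 difference (y axis) of the 102 genes (circles) and of all genes tested (squares) in 4 comparisons, under the deposited FPKM and 4 other scalings (x axis). The circles move across 0 in E16.5 against whole body (0.50 to -0.01) and in E16.5 against E10.5 (0.28 to -0.18) when crystallins are left out, and stay above the squares in each case.

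These genes are short, and short genes as a class also differed. Their median transcript length was 1222 bases against 2920 bases for all genes, and 78 of them were among the shortest genes, those of 117 to 1845 bases. In E16.5 against whole body, all genes of those lengths had a median log2 difference of 0.20 and the 78 members one of 0.58. In E12.5 against E10.5 the same medians were 0.09 and 0.14. Removing the trend with length left 67 higher and 12 lower in E16.5 against whole body, against 42.2% and 38.2% of all genes. In E12.5 against E10.5 it left 23 higher and 21 lower, or 22.5% and 20.6%, both below the 26.7% and 30.1% of all genes.

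Within the lens, more of these genes rose than fell from E10.5 to E14.5, and few were called from E14.5 to E16.5. From E10.5 to E12.5, 38 of the 102 genes rose and 5 fell, against 29.5% and 26.0% of all genes. From E12.5 to E14.5, 40 rose and 1 fell, against 21.2% and 22.4%. From E14.5 to E16.5, 2 rose and 1 fell, against 5.97% and 4.03%. The median log2 changes of the 102 genes were 0.14, 0.19 and -0.05. A moderated F test over the 4 lens stages called 69 of the 102 genes, or 67.6%, which was below the 77.3% of all genes tested. On the scale without crystallins the first step read 20 higher and 21 lower, against 23.5% and 34.6% of all genes. The second read 15 higher and 24 lower, against 11.2% and 40.8%, and the last 2 higher and 11 lower, against 4.59% and 8.49%.

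Over the whole course, from E10.5 to E16.5, 54 genes rose and 15 fell, against 37.2% and 36.7% of all genes. At least 2-fold rises were called for 11 and 2-fold falls for 0, against 17.2% and 18.2% of all genes. The largest fall in the limma fit, that of Tomm5, was 1.84-fold, so the count of 2-fold falls was 0 with or without adjustment. With crystallins left out, 24 rose and 49 fell, or 23.5% and 48.0%, against 23.5% and 53.5% of all genes, so these shares lay near the background. The median of the 102 genes on that scale, -0.18, lay 0.22 above that of all genes. In successive steps, 23 genes rose in both of the first 2 steps and were not called in the last, which is 22.5% against 12.1% of all genes. A rise in the first step alone was seen in 14 (13.7% against 12.4%) and in the second alone in 13 (12.7% against 4.77%), and 43 were called in none (42.2% against 29.3%). Of the 100 genes other than pseudogenes, 43 had their highest lens mean at E14.5, 28 at E16.5, 16 at E10.5 and 13 at E12.5. Lowest means were at E10.5 for 64 of them and at E16.5 for 23.

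The counts from E10.5 on moved with the choice of E10.5 libraries. Without E10.5 replicates 1 and 3, which carried liver-type transcripts, 16 genes rose and 4 fell between E10.5 and E12.5, against 21.9% and 20.2% of all genes. In this fit the single remaining E10.5 library was assumed to vary like the other groups. From E10.5 to E16.5, 39 rose and 11 fell without them, against 32.1% and 32.9% of all genes. In the step from E10.5 to E12.5 the falling calls numbered 2 without E10.5 replicate 2, 3 without E10.5 replicate 3 and 2 without E12.5 replicate 3. In the step from E14.5 to E16.5 no falling call was left without any 1 of the 3 E16.5 libraries or without E14.5 replicate 1 or 3, and there were 4 without E14.5 replicate 2.

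Summed over the 102 genes, FPKM was 4018 ± 242 at E10.5, then 4520 ± 134 at E12.5, 5331 ± 225 on E14.5 and 5233 ± 139 on E16.5 (SD, n = 3 each), while whole body gave 3413 ± 120. No lens library overlapped the whole-body range of 3283 to 3520. As a share of FPKM outside the crystallins, the same genes took 0.538% ± 0.016, 0.549% ± 0.025, 0.545% ± 0.033 and 0.504% ± 0.006 in the lens and 0.474% ± 0.008 in whole body. On this scale all 12 lens libraries again lay above the whole-body range, and the E16.5 mean was the lowest of the lens stages, with a range that overlapped E14.5. The sum of large-subunit over small-subunit FPKM, a ratio that a single scaling factor per library leaves unchanged, ran from 1.99 to 2.17 in the lens and from 1.92 to 1.96 in whole body.

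**Figure D3:**
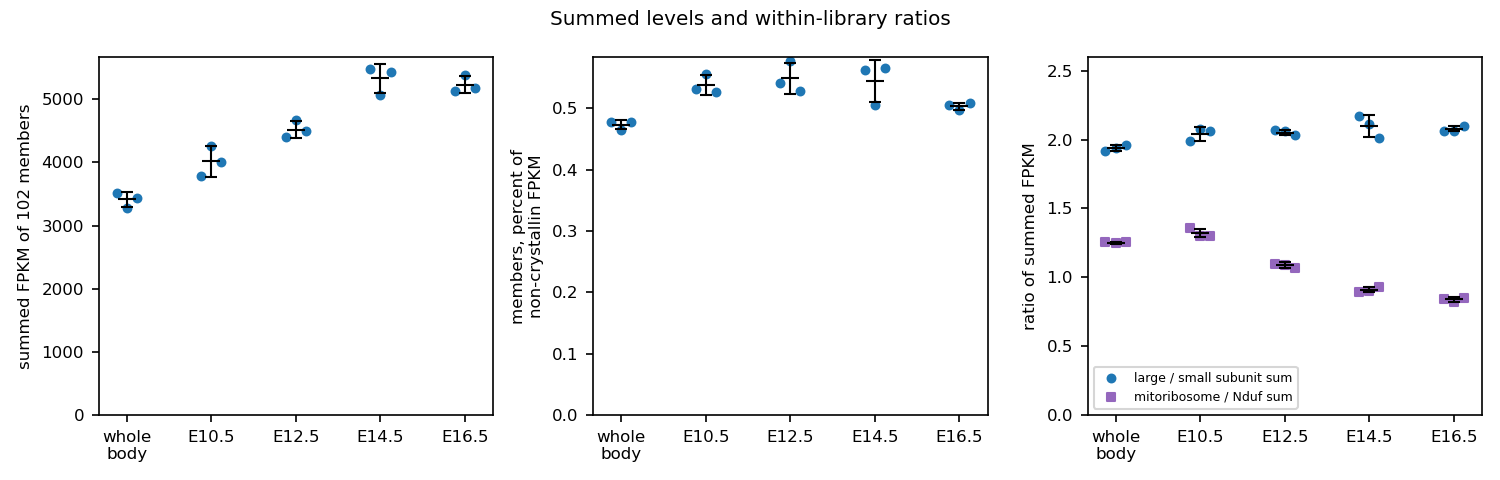
Left, summed FPKM of the 102 genes in each library. Middle, the same genes as a percent of FPKM outside the crystallins. Right, summed FPKM of large-subunit over small-subunit genes (circles) and of the mitochondrial ribosome over Nduf genes (squares). Points are libraries, bars are mean ± SD of 3. Mean summed FPKM rises from 4018 at E10.5 to 5331 at E14.5, while the mean share over these stages stays between 0.538% and 0.549%. The mean share is 0.474% in whole body, and the squares fall from 1.32 at E10.5 to 0.84 at E16.5.

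The receptors of TOM differed among themselves. Tomm20, the receptor for presequence proteins, was the most abundant of the 100 genes at each lens stage. It stood at 133, 155 and 140 FPKM at E10.5, then 198, 202 and 208 at E12.5, 261, 224 and 220 on E14.5 and 191, 203 and 199 on E16.5, against 131, 117 and 124 in whole body. All libraries from E12.5 on lay above every E10.5 and whole-body library. The log2 difference at E16.5 was 0.67 ± 0.08 (SE, adjusted p = 8.74e-07, limma) from whole body and 0.47 ± 0.08 (adjusted p = 4.53e-05) from E10.5. Leaving out crystallins gave 0.14 and -0.01, neither of them called.

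Tomm70a, the receptor for carrier proteins and other substrates without a presequence, was the most abundant in whole body at 181, 160 and 165 FPKM. At E10.5 it stood at 120, 120 and 118 FPKM, below every whole-body library, with a log2 difference of -0.49 ± 0.07 (adjusted p = 2.12e-05, limma). At E16.5 it stood at 133, 137 and 143 FPKM, still below each whole-body library (log2 difference -0.29 ± 0.07, adjusted p = 0.00113), although removing the trend with length brought this difference to 0.02. With crystallins left out, the same difference was -0.81. Tomm22, a receptor that also holds the complex together, had a log2 difference from whole body of 0.51 ± 0.09 (adjusted p = 5.67e-05, limma) at E16.5 and -0.01 with crystallins left out. Its 3 libraries there held 85.0, 88.8 and 94.3 FPKM, within the 78.2 to 102 FPKM of E10.5.

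The channel and its paralog took different courses. Tomm40, which forms the pore of TOM, held 72.6, 79.5 and 81.1 FPKM at E10.5 and 66.6, 68.4 and 64.5 FPKM at E16.5, and fell by 0.22 ± 0.07 on the log2 scale (adjusted p = 0.0114, limma). Tomm40l, encoded by a separate gene (chr1:171216011-171222514), held 24.1, 25.5 and 19.2 FPKM at E10.5, then 31.6, 35.1 and 35.6 at E12.5, 52.0, 46.1 and 44.6 on E14.5 and 57.3, 58.2 and 58.9 on E16.5. Whole body held 22.1, 21.5 and 26.0 FPKM. The ranges of the 4 lens stages did not overlap. Tomm40l rose by 1.31 ± 0.10 on the log2 scale from E10.5 to E16.5 (adjusted p = 2.59e-08, limma), and by 0.85 with crystallins left out. Part of this lay in 1 of its transcripts, ENSMUST00000005817, which averaged 0.31 ± 0.13 FPKM at E10.5 and 22.0 ± 2.3 at E16.5 (SD, n = 3). Exons of Tomm40l overlap Nr1i3 on the other strand, and without stated strand their reads cannot be told apart.

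The small TOM subunits, which support assembly of the complex, also moved apart. Tomm5 held 35.6, 38.4 and 37.5 FPKM at E10.5, then 35.8, 32.5 and 27.2 at E12.5, 32.3, 20.4 and 26.7 on E14.5 and 19.7, 19.0 and 20.4 on E16.5. Every E16.5 library lay below every E10.5 and whole-body library, the latter at 30.4, 29.4 and 30.7 FPKM. Tomm5 had the largest called fall of the 102 genes from E10.5 to E16.5 on the deposited scale, at -0.88 ± 0.13 on the log2 scale (adjusted p = 2.21e-05, limma). Tomm6 held 48.0, 59.8 and 46.7 FPKM at E10.5 and 92.7, 94.5 and 89.8 at E16.5, against 31.3, 29.0 and 33.1 in whole body. Its log2 difference from whole body at E16.5 was 1.54 ± 0.10 (adjusted p = 2.42e-09, limma), and 1.02 with crystallins left out. Exons of Tomm6 overlap Tomm6os and Usp49 on the other strand. Tomm7 differed from whole body by 0.51 ± 0.13 at E16.5 (adjusted p = 0.00206, limma) and by -0.01 with crystallins left out.

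**Figure D4:**
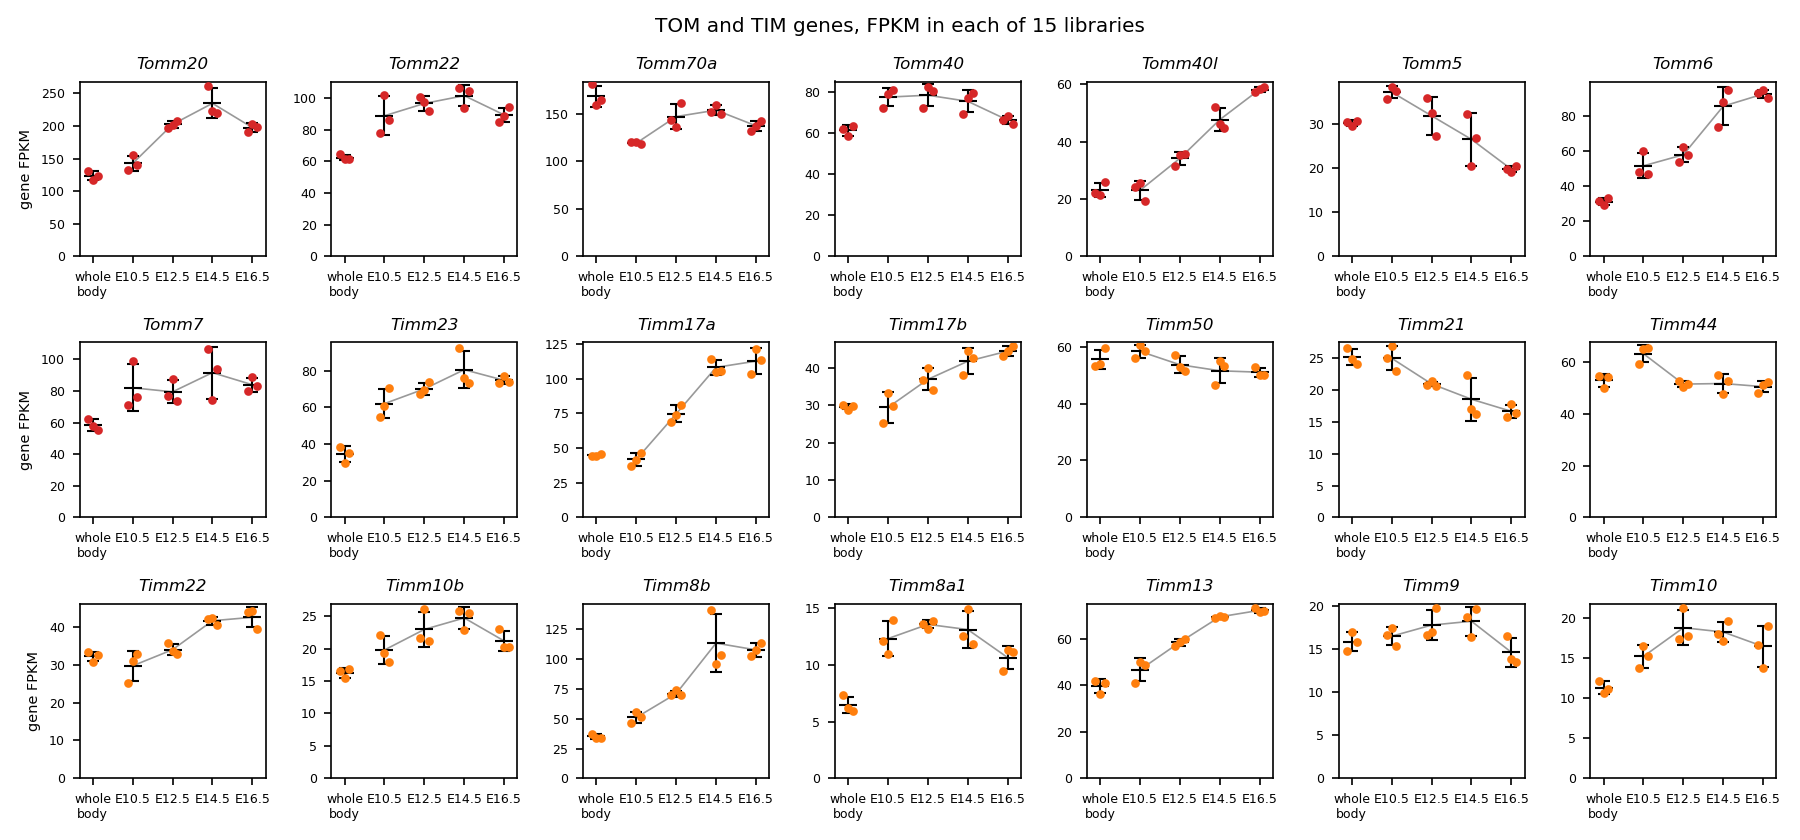
FPKM (y axis, from 0) of the 8 TOM genes (red) and 13 TIM genes (orange) in whole body and at the 4 lens stages (x axis). Points are libraries, bars are mean ± SD of 3 and the grey line joins the lens means. Timm17a and Tomm40l climb from 41.7 and 22.9 FPKM at E10.5 to 113 and 58.1 FPKM at E16.5, while Tomm5 and Timm21 descend from 37.2 and 25.0 to 19.7 and 16.7.

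Among TIM genes, Timm23, the channel protein of the TIM23 complex, was higher in the lens than in whole body from E10.5 on. It held 54.9, 60.8 and 70.5 FPKM at E10.5 and 73.3, 77.4 and 73.7 at E16.5, against 38.2, 29.6 and 35.2 in whole body. The log2 difference from whole body was 0.84 ± 0.11 at E10.5 (adjusted p = 1.1e-05, limma) and 1.11 ± 0.11 at E16.5 (adjusted p = 1.7e-07), and it stayed called with crystallins left out, at 0.79 and 0.59. The change from E10.5 to E16.5, 0.27 ± 0.11 (adjusted p = 0.0332), was not called without E10.5 replicate 1 or 2 or without any 1 of the E16.5 libraries.

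Timm17a, a partner of Timm23 in the translocase (chr1:135295213-135313778), held 37.0, 41.5 and 46.7 FPKM at E10.5 and 44.2, 44.2 and 45.8 in whole body. It then held 68.9, 73.9 and 80.9 FPKM at E12.5, 114, 105 and 106 on E14.5 and 103, 121 and 113 on E16.5. Lens at E10.5 and whole body overlapped, and every later library lay above both. The rise from E10.5 to E16.5 was 1.41 ± 0.09 on the log2 scale (adjusted p = 1.56e-09, limma), and 0.94 with crystallins left out. Its paralog Timm17b, on the X chromosome, held 25.2, 33.3 and 29.8 FPKM at E10.5 and 43.2, 44.5 and 45.8 at E16.5. Its rise of 0.59 ± 0.10 (adjusted p = 5.51e-05, limma) was 0.12, and not called, with crystallins left out. Exons of Timm17b overlap Gm10491 on the other strand.

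Other proteins of the TIM23 complex went the other way. Timm21, which links the complex to TOM and to the respiratory chain, held 25.1, 26.9 and 23.1 FPKM at E10.5, 26.6, 24.8 and 24.2 in whole body and 15.8, 17.8 and 16.4 at E16.5. All E16.5 libraries lay below those of E10.5, E12.5 and whole body and overlapped those of E14.5, and the fall from E10.5 was 0.56 ± 0.11 on the log2 scale (log2 change -0.56, adjusted p = 0.000329, limma). Timm44, which tethers the import motor to the channel, fell by 0.29 ± 0.07 from E10.5 to E12.5 (adjusted p = 0.00241, limma), from 59.3, 65.0 and 65.2 FPKM to 52.6, 50.4 and 51.4. Timm50, the receptor of the complex, changed by -0.19 ± 0.07 from E10.5 to E16.5 (adjusted p = 0.0292, limma), a call lost without E10.5 replicate 2 or 3 or without E16.5 replicate 2 or 3. With crystallins left out, the changes of Timm21, Timm44 and Timm50 from E10.5 to E16.5 were -1.01, -0.79 and -0.66, each called.

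The carrier pathway and the small chaperones were mixed. Timm22, the carrier translocase, rose by 0.51 ± 0.09 on the log2 scale from E10.5 to E16.5 (adjusted p = 0.000109, limma), from 25.2, 31.0 and 33.0 FPKM to 43.9, 44.3 and 39.5, and was 0.05 and not called with crystallins left out. Timm8b, a small chaperone, held 46.2, 55.8 and 51.1 FPKM at E10.5, then 69.6, 74.0 and 69.5 at E12.5, 141, 95.7 and 103 on E14.5 and 102, 107 and 113 on E16.5. Whole body held 37.3, 33.9 and 34.1 FPKM, below every lens library. Its log2 difference from whole body at E16.5 was 1.59 ± 0.11 (adjusted p = 5.56e-09, limma), and 1.07 with crystallins left out. Exons of Timm8b overlap Nkapd1 on the other strand.

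Timm13, which pairs with Timm8 proteins, rose by 0.63 ± 0.08 from E10.5 to E16.5 (adjusted p = 2.67e-06, limma), and by 0.16 with crystallins left out. Timm8a1 was the least abundant of the 100 genes in each group, at 12.1, 10.9 and 13.9 FPKM at E10.5, 9.48, 11.3 and 11.1 at E16.5 and 7.30, 6.19 and 5.95 in whole body. Timm9, Timm10 and Timm10b, which form chaperone complexes for carrier proteins, were not called between E10.5 and E16.5, with log2 differences of -0.17 ± 0.11, 0.10 ± 0.13 and 0.10 ± 0.11 (adjusted p = 0.197, 0.49 and 0.43, limma). Once crystallins were left out, Timm9, Timm10 and Timm10b were lower, at -0.61, -0.35 and -0.36.

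Ratios between paralogs within a library are unchanged by a single scaling factor per library, such as leaving out crystallins, though not by quantile normalization or the length correction. Timm17a over Timm17b was 1.47, 1.25 and 1.57 at E10.5, 1.47, 1.53 and 1.54 in whole body and 2.38, 2.73 and 2.48 at E16.5. Tomm40l over Tomm40 was 0.33, 0.32 and 0.24 at E10.5, 0.36, 0.37 and 0.41 in whole body and 0.86, 0.85 and 0.91 at E16.5. Timm8b over Timm8a1 averaged 4.2 ± 0.79 at E10.5, 5.44 ± 0.31 in whole body and 10.2 ± 0.6 at E16.5 (SD, n = 3). For these 3 ratios, E16.5 overlapped neither E10.5 nor whole body. Timm10b over Timm10 overlapped between E16.5 and both of these groups, at 1.31 ± 0.21 in the former. Over 12 comparisons of 6 ratios, the exact permutation test gave p = 0.1 (two-sided) for each non-overlapping comparison, the smallest that 3 against 3 libraries allow, and 0.133 after Benjamini-Hochberg adjustment, so none passed.

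The Mrps18 set, 3 ribosomal proteins that descend from 1 bacterial protein, showed smaller shifts. Mrps18a rose by 0.48 ± 0.07 on the log2 scale from E10.5 to E16.5 (adjusted p = 2.17e-05, limma), and was 0.01 and not called with crystallins left out. Mrps18b and Mrps18c were not called, at 0.02 ± 0.09 and -0.09 ± 0.10 (adjusted p = 0.857 and 0.437, limma). The ratio of Mrps18a to Mrps18c was 1.61, 1.44 and 1.72 at E10.5, 1.52, 1.48 and 1.53 in whole body and 2.23, 2.63 and 2.30 at E16.5. The ratio of Mrps18a to Mrps18b averaged 1.38 ± 0.12 at E10.5 and 1.92 ± 0.30 at E16.5, where it overlapped the 1.89 ± 0.02 of whole body (SD, n = 3).

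Among mitoribosomal genes, the largest rises over the course were several times the spread between libraries. Mrps26 (chr2:130563742-130568695), a small-subunit protein without a bacterial counterpart, held 28.4, 28.0 and 31.0 FPKM at E10.5, then 29.8, 34.0 and 31.4 at E12.5, 45.9, 48.2 and 50.8 on E14.5 and 92.2, 99.4 and 78.0 on E16.5. Whole body held 26.7, 20.3 and 24.1 FPKM. It was 1 of only 2 members called higher at E16.5 than at E14.5, by 0.88 ± 0.10 (adjusted p = 9.59e-05, limma), and its log2 difference from whole body was 1.88 ± 0.10 (adjusted p = 3.1e-10), or 1.37 with crystallins left out. Exons of Mrps26 overlap 4930473A02Rik on the other strand. The other gene called in that last step was Mrpl37, a large-subunit protein, at 102, 115 and 98.1 FPKM at E14.5 and 135, 146 and 122 at E16.5. Its step of 0.35 ± 0.08 (adjusted p = 0.0172, limma) was not called without E14.5 replicate 1 or 3 or without E16.5 replicate 1 or 2.

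Mrpl53 (chr6:83109040-83109939) of the large subunit held 23.7, 26.2 and 21.5 FPKM at E10.5, then 41.2, 47.0 and 46.1 at E12.5, 79.3, 61.1 and 65.1 on E14.5 and 63.2, 72.8 and 61.8 on E16.5, against 20.0, 18.0 and 19.4 in whole body. It had the largest called rise from E10.5 to E12.5 among the 102 genes, at 0.89 ± 0.10 on the log2 scale (adjusted p = 5.68e-06, limma). Its exons overlap Ccdc142os on the other strand. Mrps33 of the small subunit held 37.0, 44.3 and 42.7 FPKM at E10.5, then 66.1, 71.5 and 72.3 at E12.5, 114, 98.1 and 98.1 on E14.5 and 106, 101 and 105 on E16.5, against 31.8, 27.2 and 27.9 in whole body. No later library overlapped E10.5 or whole body for Mrpl53 or Mrps33. Mrpl43 and Mrpl57 of the large subunit rose by 1.32 ± 0.07 and 1.16 ± 0.11 from E10.5 to E16.5 (adjusted p = 3.34e-10 and 1.15e-07, limma). On the scale without crystallins, Mrps26, Mrpl53, Mrps33 and Mrpl43 still rose by 1.12, 0.97, 0.85 and 0.85.

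Mrpl23, a large-subunit protein with a bacterial counterpart near the exit tunnel, had the largest rise over whole body of the 102 genes at E10.5 and at E16.5. It held 10.7, 9.01 and 12.4 FPKM in whole body, 23.8, 22.9 and 28.5 at E10.5, then 31.7, 34.4 and 33.3 at E12.5, 45.9, 44.2 and 50.5 on E14.5 and 43.3, 50.1 and 46.2 on E16.5. The log2 difference from whole body was 1.16 ± 0.11 at E10.5 (adjusted p = 4.65e-07, limma) and 2.03 ± 0.11 at E16.5 (adjusted p = 2.69e-10). Its short transcript ENSMUST00000137345 averaged 0.48 ± 0.42 FPKM in whole body, 12.9 ± 2.5 at E10.5 and 25.0 ± 4.9 at E16.5 (SD, n = 3). The longer ENSMUST00000038675 averaged 10.2 ± 1.4, 12.1 ± 1.5 and 21.5 ± 1.9 FPKM. The difference from whole body at E10.5 lay mainly in the short transcript as the authors' assembly divided the reads.

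Some ribosomal genes fell. Mrpl4, which has a bacterial counterpart, held 36.6, 34.1 and 38.6 FPKM at E10.5, then 31.2, 33.3 and 27.3 at E12.5, 20.7, 19.4 and 26.6 on E14.5 and 23.6, 19.3 and 22.4 on E16.5, against 31.8, 33.7 and 35.3 in whole body. It was the only gene of the 102 called lower from E12.5 to E14.5, by 0.45 ± 0.12 on the log2 scale (log2 change -0.45, adjusted p = 0.00611, limma). Over single libraries left out, the falling calls in this step numbered up to 3, reached without E14.5 replicate 1, with 2 without E12.5 replicate 3 or E14.5 replicate 3. Mrpl47 held 34.1, 33.8 and 30.8 FPKM at E10.5 and 21.9, 20.4 and 22.8 at E16.5, and Mrps16 held 22.3, 27.0 and 22.3 and then 13.7, 15.4 and 16.9. For each of the 3, the E16.5 libraries lay below all E10.5 libraries. Mrps22 of the small subunit was lower than whole body at E10.5, at 23.6, 23.0 and 23.0 FPKM against 32.9, 29.7 and 31.2 (log2 difference -0.41 ± 0.09, adjusted p = 0.000938, limma). With crystallins left out, the falls of Mrpl4, Mrpl47 and Mrps16 from E10.5 to E16.5 were larger, at -1.18, -1.04 and -1.06.

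Smaller falls from E10.5 to E12.5 were called for Mrpl32, Mrpl18 and Mrps5, at -0.28 ± 0.10, -0.25 ± 0.09 and -0.23 ± 0.08 (adjusted p = 0.0288, 0.0249 and 0.0216, limma). The calls of Mrpl32, Mrpl18 and Mrps5 were each lost without E10.5 replicate 2 and without E12.5 replicate 3. Those of Mrpl32 and Mrpl18 were lost also without E10.5 replicate 3, and that of Mrpl18 without E12.5 replicate 1. Mrpl1 fell by 0.36 ± 0.10 from E14.5 to E16.5 (adjusted p = 0.0313, limma), from 25.4, 24.8 and 26.9 FPKM to 19.3, 20.2 and 19.8. These ranges did not overlap, but the call was lost without any 1 of the 3 E16.5 libraries and without E14.5 replicate 1 or 3.

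**Figure D5:**
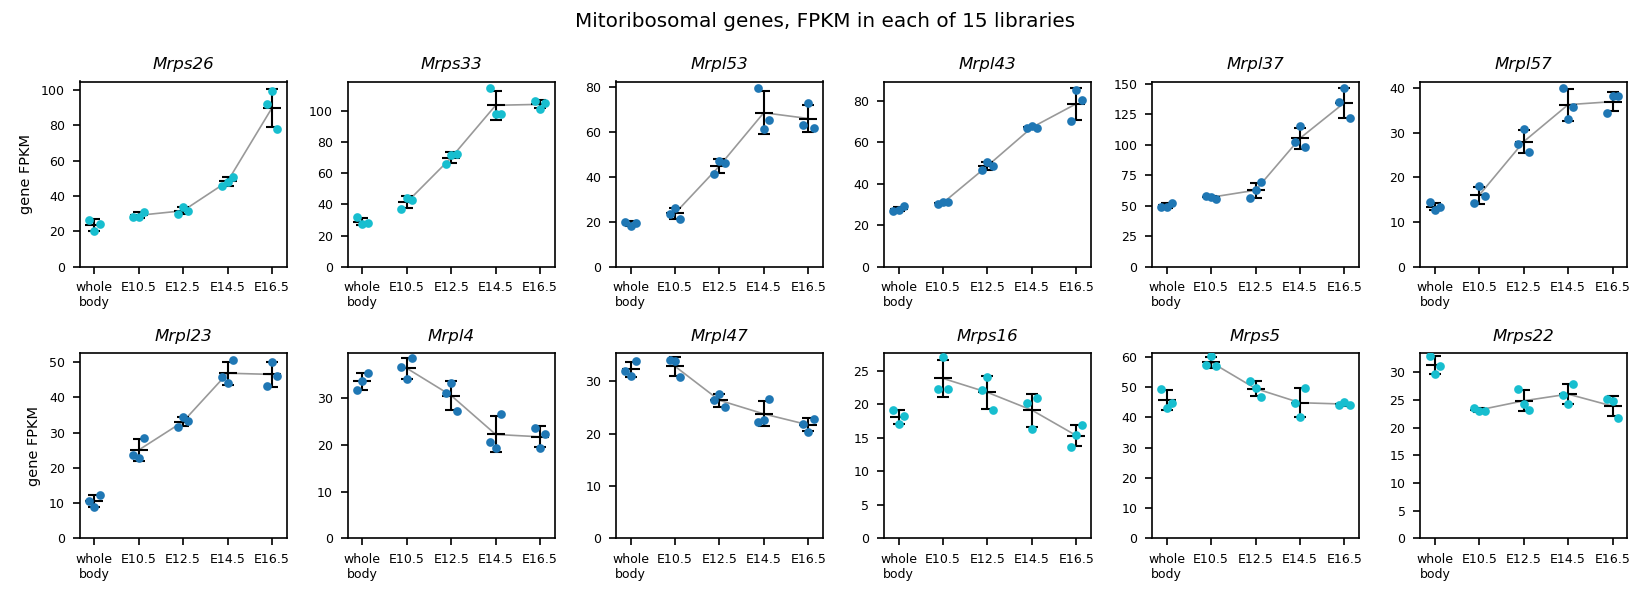
FPKM (y axis, from 0) of 12 mitoribosomal genes in whole body and at the 4 lens stages (x axis). Points are libraries (dark blue, large subunit; light blue, small subunit), bars are mean ± SD of 3 and the grey line joins the lens means. Mrps26 climbs to between 78.0 and 99.4 FPKM at E16.5, while Mrpl4 stands between 19.3 and 23.6 FPKM there, below its E10.5 libraries.

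The windows around the transcription starts of 5 of these genes are shown, chosen after their values were seen, because they include the 3 largest risers from E10.5 to E16.5 and a gene that fell. Each runs from 250 bases before to 50 after the start, 5′ to 3′ on the gene's strand, from RefSeq on GRCm38.p6, the assembly of mm10. Capitals mark matches on either strand to the motifs GCGCNTGCG (NRF1), CCGGAAG (ETS family), AAGATGGCG (YY1) and CACGTG (E-box). NRF1, the ETS factor GABP and YY1 are known regulators of nuclear genes for mitochondria.
Mrps26, chr2:130563507-130563806, forward strand: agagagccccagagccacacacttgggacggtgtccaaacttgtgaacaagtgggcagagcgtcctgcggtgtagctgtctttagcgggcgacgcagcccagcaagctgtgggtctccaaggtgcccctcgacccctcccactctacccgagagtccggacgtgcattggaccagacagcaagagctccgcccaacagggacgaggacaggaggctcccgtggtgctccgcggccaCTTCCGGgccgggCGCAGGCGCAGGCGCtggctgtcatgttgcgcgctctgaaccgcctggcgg
Mrpl53, chr6:83108858-83109157, forward strand: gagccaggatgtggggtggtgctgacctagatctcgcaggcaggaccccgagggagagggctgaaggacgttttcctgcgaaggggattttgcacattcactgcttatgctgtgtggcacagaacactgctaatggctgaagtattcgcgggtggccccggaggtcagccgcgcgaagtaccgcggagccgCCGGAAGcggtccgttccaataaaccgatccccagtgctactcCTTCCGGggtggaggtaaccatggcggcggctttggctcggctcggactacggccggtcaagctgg
Mrpl37, chr4:107066817-107067116, reverse strand: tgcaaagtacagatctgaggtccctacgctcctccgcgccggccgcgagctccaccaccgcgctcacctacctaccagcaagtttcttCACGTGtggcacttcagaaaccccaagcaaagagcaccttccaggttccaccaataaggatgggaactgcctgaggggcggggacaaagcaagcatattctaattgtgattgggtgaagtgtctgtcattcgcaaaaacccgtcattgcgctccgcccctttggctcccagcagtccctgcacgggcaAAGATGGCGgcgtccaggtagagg
Timm17a, chr1:135313688-135313987, reverse strand: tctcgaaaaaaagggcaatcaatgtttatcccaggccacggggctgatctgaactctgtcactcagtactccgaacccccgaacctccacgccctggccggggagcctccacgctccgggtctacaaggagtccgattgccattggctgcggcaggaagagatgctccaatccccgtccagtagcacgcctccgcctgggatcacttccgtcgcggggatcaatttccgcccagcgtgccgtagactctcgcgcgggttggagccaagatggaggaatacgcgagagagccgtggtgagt
Mrps16, chr14:20393441-20393740, reverse strand: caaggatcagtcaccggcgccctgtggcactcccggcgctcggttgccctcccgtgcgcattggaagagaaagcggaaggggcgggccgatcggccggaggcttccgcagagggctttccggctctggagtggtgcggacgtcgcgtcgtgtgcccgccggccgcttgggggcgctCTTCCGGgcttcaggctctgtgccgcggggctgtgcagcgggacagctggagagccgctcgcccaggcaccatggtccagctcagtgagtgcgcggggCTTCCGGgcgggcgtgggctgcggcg
Mrps26 held 2 overlapping NRF1 matches and 1 ETS match, Mrpl53 held 2 ETS matches and Mrpl37 held 1 YY1 and 1 E-box match. Timm17a, which rose by 1.41 on the log2 scale, held none of the 4. Mrps16, which fell, held 2 ETS matches in the window shown, and none in the window of its second listed start.

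RefSeq windows were found for 88 of the 102 genes, 96 windows in all. An NRF1 match was present in 22.9% of these windows, against 12.4% of the windows of all genes tested. An ETS match was present in 35.4% against 16.1%, a YY1 match in 9.38% against 2.75% and an E-box in 11.5% against 9.71%. Any of the 4 was present in 62.5% against 34.1%. By course, at least 1 match was held by 28 of 46 genes that rose from E10.5 to E16.5, by 7 of 13 that fell and by 22 of 29 not called. These matches are letters in a window, not tested sites, and genes that share a window share its matches. Overlapping windows of 1 gene were counted separately, such as those of Mrpl2, each with an E-box.

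The 3 genes with another function were higher than whole body at each stage. Mrps36, a symbol now tied to the 2-oxoglutarate dehydrogenase complex, held 21.3, 23.3 and 19.5 FPKM at E10.5, 38.8, 35.6 and 40.8 at E14.5 and 35.4, 42.0 and 33.6 at E16.5, against 9.98, 10.8 and 9.86 in whole body. Timmdc1, an assembly factor of complex I, rose by 0.79 ± 0.08 from E10.5 to E12.5 (adjusted p = 1.54e-06, limma), from 24.7, 28.4 and 25.7 FPKM to 43.2, 46.4 and 48.7. Tomm34, a cytosolic co-chaperone, differed from whole body by 0.47 ± 0.12 at E16.5 (adjusted p = 0.00172, limma) and by -0.03 with crystallins left out. The pseudogenes were low. Mrpl48-ps held 2.64, 2.36 and 3.17 FPKM in whole body and was listed at 0 in 10 of the 12 lens libraries, with at most 0.11 FPKM in the others. Mrpl23-ps1 held 2.16 to 2.27 FPKM in whole body, 0.23 to 0.28 at E10.5 and 1.26 to 1.68 at E16.5. Both share sequence with their parent genes, so their values are uncertain.

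The main transcript was the same in whole body and at E16.5 for most of the 102 genes, and differed in 7 (Mrpl17, Mrpl23, Mrpl30, Mrpl42, Mrpl55, Mrps10 and Mrps5). In Mrpl42 of the large subunit, an assembled transcript not in the reference averaged 11.6 ± 0.4 FPKM in whole body, 39.0 ± 5.6 at E10.5 and 65.7 ± 8.2 at E16.5, while the reference form ENSMUST00000075829 averaged 37.6 ± 4.4, 33.2 ± 4.0 and 56.4 ± 5.0 FPKM (SD, n = 3). A single transcript was listed for 28 of the 102 genes. Exons of 36 genes overlapped another gene on the opposite strand and those of 11 a gene on the same strand. Besides the genes whose overlap is given above, those with opposite-strand overlap included Tomm40, Tomm70a, Timm9, Timm10b, Timm13, Mrpl18, Mrpl43, Mrpl47 and Mrps18b. Those with same-strand overlap included Tomm6, Timm10b, Timm23, Mrpl53 and Mrps18c.

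Genes that work with these proteins were grouped into lists by function, and limma calls are counted over the listed genes that were tested. The shares of all genes in this comparison were 37.2% higher and 36.7% lower on the deposited scale and 23.5% and 53.5% without crystallins, where the median of all genes was -0.395. Of 6 mitoribosomal proteins under other symbols, 5 rose from E10.5 to E16.5 and the sixth was not called, with a median log2 change of 0.56; without crystallins 2 rose and 1 fell. Ptcd3, a small-subunit protein, rose by 0.76 ± 0.09 and Dap3, another, was not called at 0.05 ± 0.10 (adjusted p = 1.08e-06 and 0.672, limma). Of 25 genes for the import motor, protein processing and sorting, 18 rose and 3 fell, with a median of 0.45, and without crystallins 10 rose and 8 fell, with a median of -0.02. Pmpca, a subunit of the presequence protease, averaged 82.5 ± 5.7 FPKM at E10.5 and 221 ± 13 at E16.5 (log2 change 1.41 ± 0.11, adjusted p = 1.28e-08, limma). Hspe1, the matrix co-chaperonin, fell by 0.45 ± 0.10 (log2 change -0.45, adjusted p = 0.000815, limma). Agk, a lipid kinase that is also part of the TIM22 complex, fell by 0.88 ± 0.10 (log2 change -0.88, adjusted p = 1.16e-06, limma). With crystallins left out, the changes of Ptcd3, Pmpca, Hspe1 and Agk were 0.29, 0.94, -0.92 and -1.33.

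Translation factors changed in both directions. Of 40 mitochondrial translation and ribosome assembly factors, 13 rose and 10 fell from E10.5 to E16.5, with a median of -0.03, and without crystallins 4 rose and 24 fell, near the all-gene shares on that scale. Mtg1, a GTPase of ribosome assembly, averaged 9.51 ± 1.08 FPKM at E10.5 and 30.7 ± 1.0 at E16.5 (log2 change 1.60 ± 0.13, adjusted p = 3.88e-08, limma), while Gtpbp10, another such GTPase, averaged 24.9 ± 2.7 and 12.6 ± 1.5 (-0.93 ± 0.11, adjusted p = 3.03e-06). Without crystallins the changes of Mtg1 and Gtpbp10 were 1.15 and -1.38. Of 20 genes for mitochondrial aminoacyl-tRNAs, 8 rose and 5 fell, and without crystallins 3 rose and 10 fell. Lars2, the mitochondrial leucyl-tRNA synthetase, stood apart in level, at 158, 192 and 205 FPKM at E10.5, 2543, 3320 and 2555 at E16.5 and 1107, 660 and 633 in whole body. Whether all of these reads came from the synthetase transcript was not tested.

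Of 14 genes for mitochondrial DNA and its regulators, 1 rose and 9 fell from E10.5 to E16.5, with a median of -0.40, and without crystallins 1 rose and 12 fell. Tfb2m, a mitochondrial transcription factor, was the 1 that rose, from 9.59, 9.46 and 9.71 FPKM to 19.9, 23.5 and 18.3 (log2 change 1.02 ± 0.15, adjusted p = 1.72e-05, limma). Nrf1 held 46.7, 49.7 and 52.7 FPKM at E10.5 and 30.2, 34.6 and 33.6 at E16.5, and Gabpa held 56.7, 63.4 and 64.3 and then 74.3, 72.0 and 64.4. Myc fell from 39.1 ± 3.9 to 7.71 ± 1.23 FPKM (log2 change -2.21 ± 0.16, adjusted p = 1.22e-08, limma). Without crystallins the log2 changes of Tfb2m, Nrf1 and Myc were 0.57, -1.05 and -2.65. Of 6 mitophagy genes, 4 rose and 1 fell, and without crystallins 4 rose and 2 fell. Optn, an autophagy receptor, averaged 6.10 ± 1.23 FPKM at E10.5, then 10.6 ± 1.5 at E12.5, 92.5 ± 9.5 on E14.5 and 146 ± 16 on E16.5. Bnip3l, a mitophagy receptor of the outer membrane, averaged 118 ± 16, 245 ± 29, 468 ± 52 and 459 ± 49 FPKM (SD, n = 3). From E10.5 to E16.5 the log2 changes of Optn and Bnip3l were 4.39 and 1.96, and 3.94 and 1.48 without crystallins.

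The Nduf genes, which encode subunits and assembly factors of complex I, were set beside these. Of 45, 41 rose and 2 fell from E10.5 to E16.5, with a median log2 change of 0.90 against 0.28 for the 102 genes. Without crystallins 26 rose and 5 fell, with a median of 0.43 against -0.18. The ratio of mitoribosomal to Nduf summed FPKM was 1.36, 1.30 and 1.30 at E10.5, then 1.10, 1.09 and 1.07 at E12.5, 0.89, 0.90 and 0.93 on E14.5 and 0.84, 0.82 and 0.85 on E16.5. No stage overlapped the next, and whole body, at 1.26, 1.25 and 1.26, lay between E10.5 and E12.5. This ratio is within a library and is given with no test.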

How the data were processed

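RNA was sequenced on an Illumina HiSeq instrument from 15 libraries, per the labels' protocols. Per the submitters' processing notes, Trimmomatic, TopHat2 2.0.9, Cufflinks and Cuffnorm were used with mm10; their order and settings, and whether reads kept strand, are not given in the sources used here. The deposited values are FPKM per transcript as the authors made them, for 48306 transcripts. Depth is unknown, so no counting error is given.

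FPKM was summed per gene symbol after leaving out 172 transcripts assembled opposite to a reference exon. Genes were kept where 3 or more libraries reached 1 FPKM; 80 were removed as low and 3 as listed at 0 beside a replicate of at least 50 FPKM. limma 3.58.1 (R 4.3.3) fitted log2(FPKM + 1) with 1 mean per group over all 15 libraries and a trend in the variance, and p-values were adjusted by Benjamini-Hochberg over 14532 genes. The procedure was tested on simulated data. Nothing in the labels says how animals were divided beyond biological replicates and pools, so p-values measure the spread between these pools. Same-numbered libraries did not deviate together (correlations of -0.095 to 0.237 over 30 group pairs, 4 over 0.1), so the numbers were not used to pair them.

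The genes described, the lists and the tests were chosen with earlier results of these data known. Genes were named where they had the largest called changes of a comparison, lay at the ends of a list or belonged to TOM, TIM or a paralog set; ratios between paralogs were chosen after their values were seen. Coordinates are from GENCODE vM21 on GRCm38. Alternatives were other pseudocounts, filters, scalings and transcript sets, a 2-fold minimum, a length correction, a replicate block and each library left out.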

Additional observations from a re-analysis of the deposited data

Results flagged for a closer look

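A transcript assembled on the strand opposite to Mrps28, which was left out of the sums, averaged 2.43 ± 0.22 FPKM at E12.5 (SD, n = 3) against 1.88 ± 0.10 FPKM in whole body, and its lowest E12.5 library, at 2.25 FPKM, lay above the whole-body mean.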

How the results depend on the processing

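Over 102 gene-level results, 1583 of 1734 values under the alternatives stayed called or stayed uncalled as on the deposited scale. A further 111 lost the call without a change of sign, 58 of them under the 2-fold minimum, and 18 gained one. The other 22 changed sign, which was counted only where the main or the alternative fit was called. Leaving out crystallins and equalizing the remaining totals, higher and lower calls against whole body were 45 and 13 at E12.5, 47 and 26 at E14.5 and 35 and 36 at E16.5. Between stages they were 20 and 21 (E10.5 to E12.5), 15 and 24 (E12.5 to E14.5), 2 and 11 (E14.5 to E16.5) and 24 and 49 (E10.5 to E16.5). Signs changed under this scaling from E10.5 to E16.5 for Mrps18b (-0.44), Timm10 (-0.35), Timm10b (-0.36), Timm23 (-0.20), Tomm20 (-0.01), Tomm22 (-0.46), Tomm7 (-0.43) and Tomm70a (-0.27), and at E16.5 against whole body for Mrps18c (-0.44), Timm10b (-0.14), Timm22 (-0.12), Tomm22 (-0.01), Tomm34 (-0.03), Tomm40 (-0.41) and Tomm7 (-0.01). Quantile normalization turned Tomm22 (-0.28) and Tomm70a (-0.17) from E10.5 to E16.5. In the 4 stage comparisons, in the order above, it gave 15, 3, 3 and 23 lower calls. These were 14.7%, 2.94%, 2.94% and 22.5% of the 102 genes, against 30.8%, 22.9%, 5.26% and 38.7% of all genes. Higher calls numbered 29, 31, 2 and 44, against 27.1%, 21.5%, 4.57% and 34.7% of all genes. Median-ratio scaling gave 16 lower calls at E16.5 against whole body, 13 from E10.5 to E12.5 and 3 from E14.5 to E16.5. These were 15.7%, 12.7% and 2.94% of the 102 genes, against 46.2%, 29.8% and 4.39% of all genes. The higher calls there were 66, 28 and 3, against 34.3%, 27.0% and 6.77% of all genes. Removing the length trend gave 23 higher and 21 lower from E10.5 to E12.5, against 26.7% and 30.1% of all genes. In the other 3 stage comparisons it gave 3, 5 and 27 lower, or 2.94%, 4.90% and 26.5%, against 18.7%, 7.18% and 38.3%. Higher calls in those 3 numbered 43, 2 and 44, against 26.9%, 5.35% and 36.4% of all genes. Removing this trend turned Mrps18b (-0.22), Timm10 (-0.30), Timm23 (-0.02) and Tomm22 (-0.23) from E10.5 to E16.5 and Tomm70a (0.02) at E16.5 against whole body. The cause was not tested.

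A 2-fold minimum, stricter by construction, left 1 higher and 2 lower at E10.5, 8 and 1 at E12.5, 25 and 1 at E14.5 and 23 and 1 at E16.5 against whole body. All of these lower calls were pseudogenes. Of all 14532 genes tested, it left 942 higher and 1979 lower at E10.5 and 1602 and 2568 at E12.5. For the later stages it left 2390 and 3684, then 2688 and 3804. The share of higher calls was thus below that of all genes at E10.5 and E12.5 and above it later. Between stages the 2-fold minimum left 0 and 0 in each of the 3 steps and 11 and 0 from E10.5 to E16.5. Among all genes tested it left 1240 and 1067, 594 and 1131, and 233 and 42 in the steps. Over the whole course it left 2493 and 2650 of all genes. Both shares were below those of all genes in each of these comparisons. Fitting only the groups compared gave 3 lower from E10.5 to E12.5, 0 lower from E12.5 to E14.5 and 1 higher from E14.5 to E16.5; only reference transcripts gave 2 lower in the last step. Without E10.5 replicates 1 and 3, an alternative chosen after seeing the data, 16 were higher from E10.5 to E12.5. Leaving out each library of the groups compared gave 38 to 50 higher and 5 lower at E10.5 against whole body, 56 to 64 and 4 to 6 at E12.5, 73 to 79 and 5 to 7 at E14.5, and 68 to 70 and 8 to 11 at E16.5. In the steps it gave 28 to 42 and 2 to 5, 31 to 43 and 1 to 3, and 1 to 2 and 0 to 4, with 50 to 53 and 11 to 16 from E10.5 to E16.5 and 65 to 70 genes in the F test. The replicate block, whose numbers did not pair the libraries (0 of 15 correlated best with their own number), gave 70 higher and 10 lower at E16.5 against whole body, 53 and 15 from E10.5 to E16.5 and 66 genes in the F test.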

Other observations

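Mitoribosomal genes were also divided, after their values were seen and with no test, into 45 whose proteins have a bacterial counterpart and 31 whose proteins are specific to mitochondria. From E10.5 to E16.5, 22 of the 45 rose and 7 fell, with a median log2 change of 0.18. Of the 31, 19 rose and 3 fell, with a median of 0.43. The shares of all genes were 37.2% and 36.7%. These counts are on the deposited scale, and none are given for the division with crystallins left out. On that scale 24 of the full set of genes described here rose and 49 fell in this comparison. Against whole body at E16.5 the medians were 0.39 and 0.74. Median transcript lengths were 1122 and 1383 bases.

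Lars2, the mitochondrial leucyl-tRNA synthetase, varied widely within groups, at 421, 167 and 324 FPKM at E12.5 and 1147, 2026 and 1702 FPKM at E14.5. The source of this spread and of the reads was not tested.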
